A study of Mus musculus with 6 samples.

Results

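Integrin and laminin genes were examined in preSC cells, a mouse line that the labels call a precursor of small cell lung cancer. The members were the 37 genes whose symbols begin with the stem of an integrin alpha chain, an integrin beta chain or a laminin chain followed by its number or letter, out of 23284 gene symbols in the count files. They comprised 18 integrin alpha chain genes, 8 integrin beta chain genes and 11 laminin genes. RNA from 6 libraries was sequenced after poly(A) selection. The 3 shCrebbp libraries carried pLKO.1 vectors with hairpin 1, 2 or 5 against Crebbp, which encodes the acetyltransferase CREB-binding protein. The 3 control libraries carried the empty pLKO.1 vector (shEmpty, control replicates 1 and 2) or a non-silencing hairpin (shNS, control replicate 3). Every group thus shared the cell line and the lentiviral backbone, and the comparison asks which genes Crebbp regulates. There was 1 library per hairpin and a single cell line, and the labels do not say whether libraries came from separate cultures, so p-values measure only the spread between these libraries.

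Integrins are transmembrane receptors built of one alpha and one beta chain, and they join the extracellular matrix to the actin cytoskeleton. Laminins are secreted trimers of one alpha, one beta and one gamma chain, and form the sheet of the basement membrane on which lung epithelium rests. The alpha chain of an integrin largely sets which ligand is bound. The chains encoded by Itga3, Itga6 and Itga7 bind laminin, those of Itgav and Itga5 bind matrix proteins with the RGD motif, and those of Itgal, Itgam, Itgax and Itgad pair with the Itgb2 product on leukocytes.

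Each library had between 13622020 and 19804949 reads in genes, and the members took 0.0781% to 0.102% of them in shCrebbp libraries and 0.0920% to 0.101% in control libraries. The targeted gene Crebbp stood at 46.2, 58.3 and 48.9 CPM (counts per 1000000 reads in genes, with TMM-scaled library sizes) with hairpins 1, 2 and 5, against 66.2, 69.6 and 69.4 CPM in control replicates 1, 2 and 3. Its log2 fold change was -0.42 ± 0.10 (SE) and did not pass the threshold of 0.05 in the primary test, edgeR's quasi-likelihood test adjusted over all tested genes (adjusted p = 0.0999), while DESeq2 gave an adjusted p of 0.0148, and the groups did not overlap. The cells expressed neuroendocrine markers in every library, with a summed level over 8 genes of 5907 to 7483 CPM with the hairpins and 7013 to 8103 CPM in controls. The summed level of 6 epithelial markers was 1105 to 1568 CPM with the hairpins and 2358 to 2942 CPM in controls. Defining leukocyte genes were at or near 0: Ptprc, Cd3e, Csf1r and Laptm5 had at most 3 reads in any library. The leukocyte list of 8 genes summed to 68.3 to 83.8 CPM with the hairpins and 75.5 to 84.3 CPM in controls, and Coro1a alone had 63.2 to 80.1 CPM with the hairpins and 70.1 to 79.0 CPM in controls. Endothelial markers, nearly all Vwf, summed to 164 to 412 CPM with the hairpins and 407 to 439 CPM in controls, with hairpin 1 low and Emcn at 0. Fibroblast markers, mostly Dcn, summed to 14.8 to 64.2 CPM with the hairpins and 38.0 to 45.8 CPM in controls, with Col3a1 at 0. Alveolar and club cell markers summed to 4.56 to 9.55 CPM with the hairpins and 8.12 to 10.5 CPM in controls. Platelet markers, of which Itga2b is one and Pf4, Ppbp and Gp9 were at 0, summed to 14.9 to 25.4 CPM with the hairpins and 18.0 to 22.0 CPM in controls.

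The integrin repertoire was dominated by Itgb1, the shared beta chain of most laminin, collagen and fibronectin receptors. Its level was 596, 425 and 500.1 CPM with hairpins 1, 2 and 5, against 549, 508 and 496 CPM in control replicates 1, 2 and 3. Hairpin 1 lay above the controls, hairpin 2 below them and hairpin 5 among them. Per kilobase of transcript (CPM divided by the median length of the gene's coding transcripts), Itgb1 made up 93.7% ± 1.15 of the beta chain level with the hairpins and 93.9% ± 0.482 in controls (SD, n = 3 each). With the longest transcript in place of the median these shares were 90.8% ± 1.33 with the hairpins and 90.8% ± 0.634 in controls. The next beta chain was Itgb5, a partner of the Itgav chain, at 29.3, 28.1 and 33.8 CPM with the hairpins and 31.4, 32.0 and 26.6 CPM in controls. The ranges of the groups overlapped. Itgb3, the other common partner of the Itgav chain, was at 15.1, 15.7 and 14.0 CPM with the hairpins, each below the control values of 15.8, 19.0 and 23.4 CPM. The epidermal hemidesmosome chain Itgb4 stayed at 4.02 to 7.5 CPM with the hairpins and 3.88 to 5.18 CPM in controls, and Itgb8, an RGD-binding chain, at 1.97 to 2.71 CPM with the hairpins and 1.17 to 2.99 CPM in controls.

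Among the alpha chains, the laminin receptor gene Itga3 was the most abundant per kilobase in controls, at 25.4 ± 2.94 CPM per kilobase (SD, n = 3). Itga6, which encodes the other main laminin-binding alpha chain, averaged 12.8 ± 3.53 CPM per kilobase in controls, and its level per library was 61.7, 28.6 and 37.0 CPM with the hairpins against 69.4, 50.1 and 40.7 CPM in controls. The third laminin-binding chain, Itga7, known from muscle, had 12 reads in all with the hairpins and 23 in controls. Where Itgav stands depends on the length used: its median coding transcript is 688 bases and its longest 7054 bases, so that its control level was 20.8 ± 0.547 or 2.03 ± 0.0533 CPM per kilobase. Reads were summed per gene and not per transcript, so a median set by short partial transcript models can overstate the level per kilobase. This applies to Itgav, Itga9, Itgb7 and Lamb2. With the longest transcripts the order in controls was Itga3 (24.4 ± 2.82), Itga6 (12.4 ± 3.40), Itga4 (2.72 ± 0.848), Itgav and Itga9 (2.01 ± 0.144), and the last 3 did not differ beyond their spread. The RGD-binding chain Itga5, the classical fibronectin receptor, did not reach the filter on low counts. The collagen-binding chain Itga10 stood at 7.57, 9.05 and 5.58 CPM with the hairpins and 8.58, 9.39 and 8.03 CPM in controls, while the other collagen-binding chains, Itga1, Itga2 and Itga11, stayed at 0.409 CPM or below in each library.

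Itgae, the alpha chain of an E-cadherin receptor of lymphocytes, was at 3.31, 4.84 and 2.93 CPM with the hairpins and 3.12, 3.11 and 2.92 CPM in controls. In the RefSeq annotation of the GRCm38 build its locus overlaps that of the kinase gene Haspin, named Gsg2 in the files, which stood at 31.0 to 43.9 CPM with the hairpins and 37.7 to 44.3 CPM in controls. Whole gene spans were compared here, not exons. Without a stated strand setting, it is not known how reads in a stretch shared by both genes were counted. Overlap with another protein-coding gene applied to 6 of the 37 members in that annotation, among them Itga4, whose neighbour is Cerkl, and Itgb4, whose neighbour is Galk1.

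**Figure D1:**
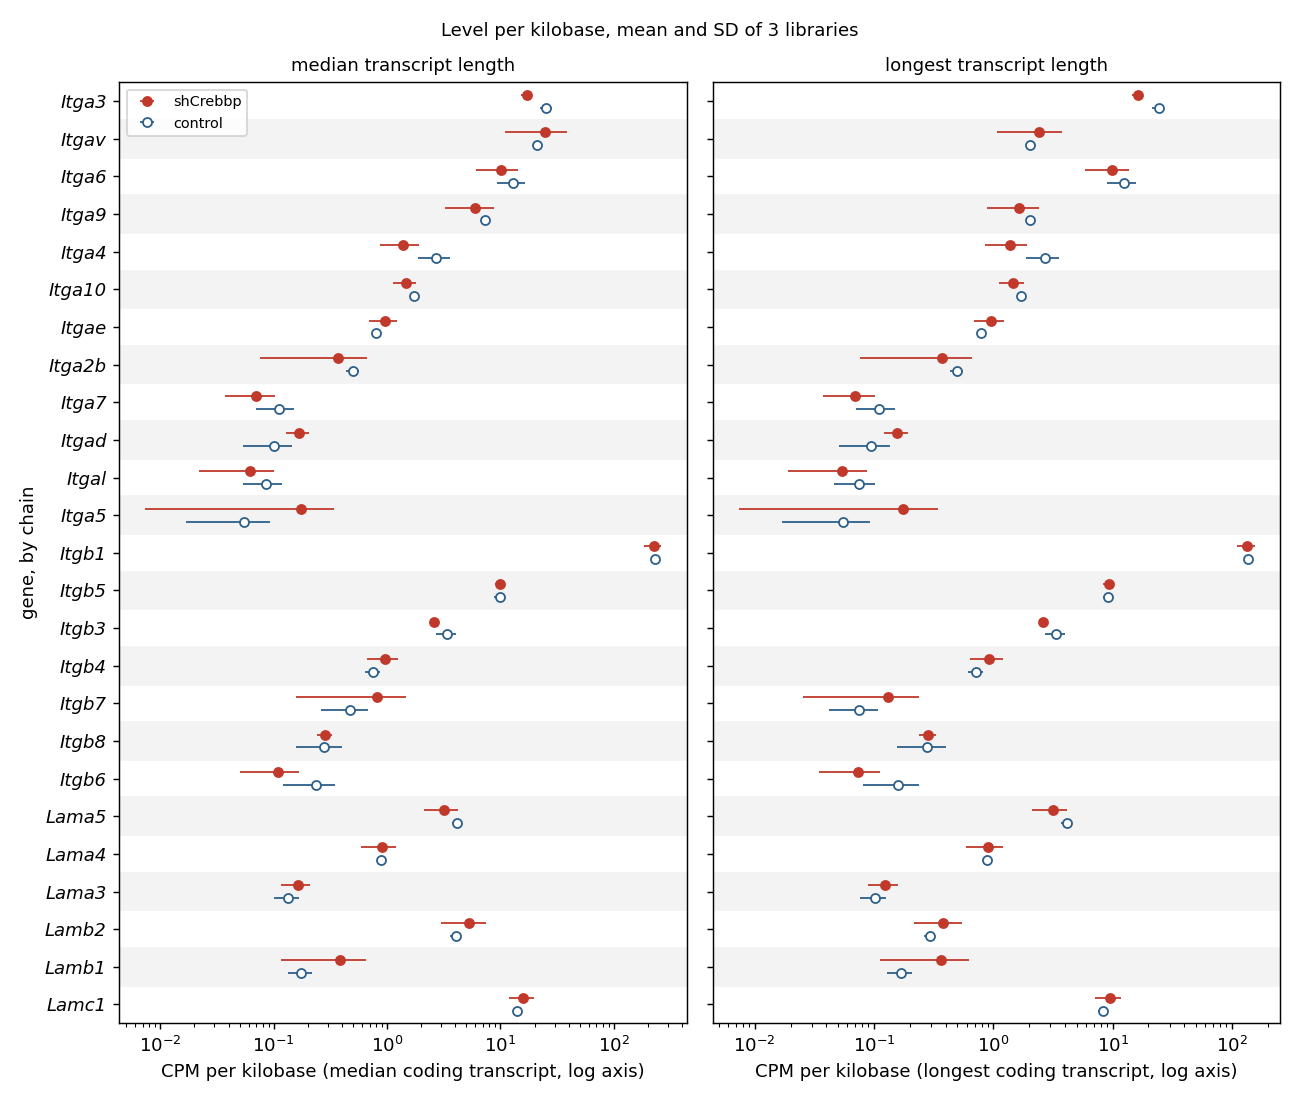
Level of integrin and laminin genes with a mean above 0.3 CPM in either group, in CPM per kilobase on a log axis, for the median (left) and the longest (right) coding transcript; points are means and bars SDs of 3 libraries, shCrebbp filled and control open. Itgb1 stands far above every other chain in both panels, and Itgav and Lamb2 move most between the panels.

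Lamc1, a part of most laminins, was the most abundant laminin gene per kilobase in controls, at 14.1 ± 1.32 CPM per kilobase (SD, n = 3). Its level was 91.5, 70.2 and 55.6 CPM with hairpins 1, 2 and 5, against 58.1, 63.6 and 70.1 CPM in control replicates 1, 2 and 3. Hairpin 1 lay above the controls, hairpin 2 at their upper end and hairpin 5 below them. Lama5, the alpha chain of most adult epithelial basement membranes, had 47.1, 37.0 and 23.5 CPM with hairpins 1, 2 and 5, against 51.7, 47.9 and 42.1 CPM in control replicates 1, 2 and 3. Hairpin 5 was lowest and hairpin 1 lay within the control range. Per kilobase Lama5 made up 74.4% ± 5.70 of the laminin alpha level with the hairpins and 80.2% ± 1.29 in controls (SD, n = 3 each). Lama4, an alpha chain known from vessels and muscle, followed at 7.42, 3.78 and 5.04 CPM with the hairpins and 5.42, 5.49 and 5.04 CPM in controls. Lama3, which with Lamb3 is part of the anchoring laminin of skin and airway, was at 1.54, 1.5 and 0.885 CPM with the hairpins and 1.12, 0.793 and 1.31 CPM in controls.

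Beta chains were less abundant than alpha chains with the longest transcripts. Lamb1 stood at 2.06, 3.63 and 0.681 CPM with hairpins 1, 2 and 5 and 0.715, 1.04 and 1.17 CPM in controls, so that hairpins 1 and 2 lay above the controls and hairpin 5 just below them. Lamb2 was at 2.13, 3.06 and 1.22 CPM with the hairpins and 1.48, 1.65 and 1.82 CPM in controls, in the same order of hairpins. The summed beta chain level was 0.786 ± 0.428 CPM per kilobase of longest transcript with the hairpins and 0.499 ± 0.0711 in controls. Alpha chains summed to 4.17 ± 1.27 with the hairpins and 5.13 ± 0.447 in controls, in the same unit. With the median transcript the beta sum was 5.66 ± 2.52 with the hairpins and 4.26 ± 0.462 in controls; the median coding transcript of Lamb2 is 409 bases and its longest 5629 bases.

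Of the 37 members, 20 passed the filter on low counts and were tested, and 17 did not. Lamb3, the beta chain of the anchoring laminin, had 1, 4 and 3 reads with the hairpins and 4, 2 and 3 reads in controls. Itgb2, the beta chain of leukocyte integrins, Lama1 and Lamc3 had no read in any library, where 3 reads would be 0.151 to 0.220 CPM. Between 1 and 10 reads over the 6 libraries were found for Itga2, Itga8, Itgam, Itgax and Lama2. The remaining 9 of the 17, Lamb3 among them, had at most 51 reads in all (Itgb6) and none exceeded 1.57 CPM in a library.

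**Figure D2:**
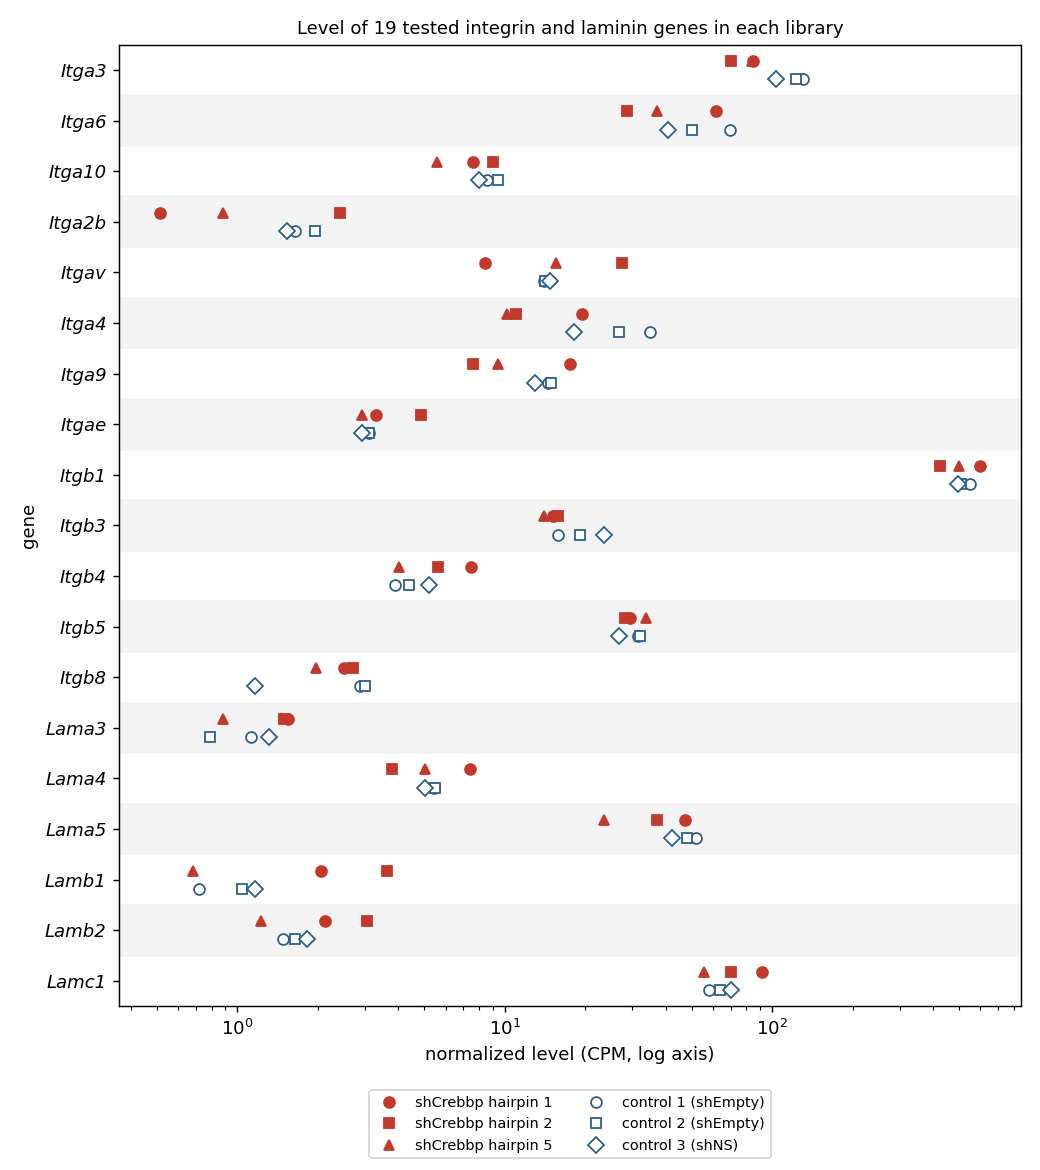
Normalized level (CPM, log axis) of 19 tested integrin and laminin genes in each library; filled symbols are the 3 hairpin libraries and open symbols the 3 controls. Itga3 and Itgb3 have all 3 hairpin libraries below all 3 controls, whereas Itgav and Itga2b have controls that lie close together and hairpins that lie far apart.

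No integrin or laminin gene passed the threshold between shCrebbp and control in the primary edgeR test, and 4 of 20 had an unadjusted p under 0.05. Over all 13390 tested genes 168 passed (1.25%), with 0.978% lower and 0.276% higher, and 16.5% had an unadjusted p under 0.05. Of the 20 members 10 had a negative and 10 a positive log2 fold change, with a median of -0.01, against a median of 0.01 over all tested genes. Among the 13 tested integrin genes the median was -0.23 with 8 negative, and among the 7 laminin genes it was 0.18 with 2 negative. DESeq2 called 3 members lower, Itga3 and Itga4 among them, and 0 higher, while over its 13881 genes with an adjusted p it called 5.30% in either direction, 3.10% lower and 2.20% higher. In 3 members all hairpin libraries lay below all controls and in 0 all lay above, against 11.0% and 11.4% of all tested genes. In bulk RNA, fewer cells expressing a gene and less RNA per cell cannot be told apart.

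Itga3 came closest to the threshold. Its level was 85.0, 70.1 and 83.8 CPM with hairpins 1, 2 and 5, against 130, 122 and 103 CPM in control replicates 1, 2 and 3. The groups did not overlap, and hairpin 2 was lowest. The mean was 79.6 ± 8.26 CPM with the hairpins and 119 ± 13.7 CPM in controls (SD, n = 3 each), a log2 fold change of -0.57 ± 0.12 (SE, edgeR adjusted p = 0.0623). The call was made by DESeq2 (adjusted p = 0.00125), by edgeR with upper quartile scaling (0.0499), without a filter (0.0381) and without hairpin 1 (0.0487), and not under the other 9 alternatives, and over all 13 the adjusted p ranged from 0.00125 to 0.303. The hairpins differed 1.21-fold from lowest to highest and the controls 1.26-fold, and the test among hairpins, described further on, gave an adjusted p of 0.351.

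Itga4, the alpha chain of receptors for VCAM1 and fibronectin, had 19.5, 11.0 and 10.2 CPM with hairpins 1, 2 and 5, against 34.7, 26.6 and 18.2 CPM in controls. Hairpin 1 lay just above the shNS library, so the groups overlapped. The mean was 13.6 ± 5.14 CPM with the hairpins and 26.5 ± 8.28 CPM in controls (SD, n = 3 each), a log2 fold change of -0.97 ± 0.30 (SE, edgeR adjusted p = 0.164). DESeq2 gave an adjusted p of 0.0276 and edgeR without hairpin 1 one of 0.0448 with a log2 fold change of -1.33, and the range over the alternatives was 0.0276 to 0.510. The shNS library was also the lowest control, with a log2 difference from shEmpty of -0.76 ± 0.40 (edgeR unadjusted p = 0.101). For Itgb3 the mean was 15.0 ± 0.875 CPM with the hairpins and 19.4 ± 3.81 CPM in controls, a log2 fold change of -0.37 ± 0.16 (SE, edgeR adjusted p = 0.301), without a call by DESeq2 (adjusted p = 0.302).

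The following members did not pass in either tool. Lama5 averaged 35.9 ± 11.9 CPM with the hairpins and 47.2 ± 4.81 CPM in controls (log2 fold change -0.40 ± 0.22, edgeR adjusted p = 0.423). Lamb1, with the largest positive log2 fold change at 1.13 ± 0.56, averaged 2.12 ± 1.48 CPM with the hairpins and 0.973 ± 0.233 CPM in controls (adjusted p = 0.360), and hairpin 5 lay below its controls. Itgb1 averaged 507 ± 85.5 CPM with the hairpins and 518 ± 27.8 CPM in controls, a log2 fold change of -0.03 ± 0.12 (adjusted p = 0.941). The log2 fold changes of the others described here lay between -0.42 (Itga2b) and 0.38 (Lamb2). The epithelial marker sums given above did not overlap between the groups, and their part in the Itga3 values was not tested.

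**Figure D3:**
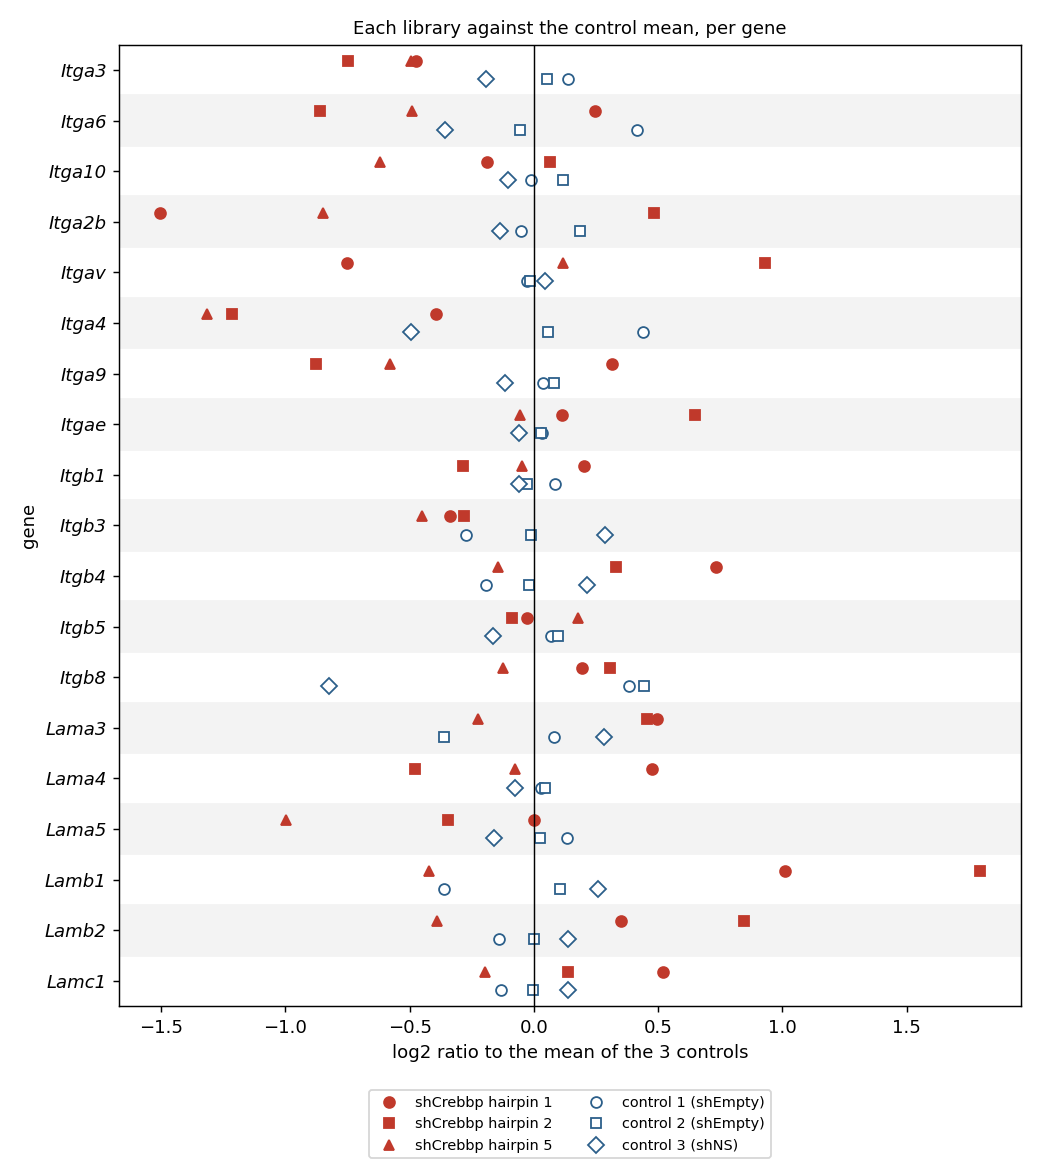
Log2 ratio of each library to the mean of the 3 control libraries for 19 tested genes, hairpins filled and controls open. Hairpin 5 (triangles) lies left of the control mean in all genes drawn except Itgav and Itgb5. Hairpins 1 (circles) and 2 (squares) lie on opposite sides of it for several genes, among them Itgav, Itga9, Itga2b, Itga6, Itgb1 and Lama4.

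Upstream sequences are shown for members with an entry in the RefSeq table that were called by DESeq2 between the groups or that differed among the hairpins under each setting tried, so that the regulatory DNA at these genes can be read beside their values. They are the 250 bases before the annotated start, 5′ to 3′ on the strand of the gene, from RefSeq on the GRCm38.p6 build (for Itga3 the upstream one of 2 starts). Each start was matched to any transcript of its gene, not to the longest, so a window may lie at an inner start. Itga9, for example, has 3 coding transcripts, with a median of 1935 and a longest of 7020 bases, and which of them its window precedes was not examined. CREB, the partner for which CREB-binding protein is named, binds the cAMP response element TGACGTCA, and capitals mark its short form TGACG or CGTCA and the AP-1 motif TGANTCA, searched on both strands.
Itga3, chr11:95076715-95076964, minus strand: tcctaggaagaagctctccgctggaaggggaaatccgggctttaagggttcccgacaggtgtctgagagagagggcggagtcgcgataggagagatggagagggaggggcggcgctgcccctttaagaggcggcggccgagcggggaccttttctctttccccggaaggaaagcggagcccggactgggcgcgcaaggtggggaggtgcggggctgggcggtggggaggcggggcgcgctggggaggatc
Itga4, chr2:79255176-79255425, plus strand: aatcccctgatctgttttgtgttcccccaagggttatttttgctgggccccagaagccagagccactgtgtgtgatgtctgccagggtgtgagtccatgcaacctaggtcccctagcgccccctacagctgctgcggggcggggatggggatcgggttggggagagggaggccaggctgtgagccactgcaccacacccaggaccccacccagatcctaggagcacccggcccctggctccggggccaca
Itga9, chr9:118711442-118711691, plus strand: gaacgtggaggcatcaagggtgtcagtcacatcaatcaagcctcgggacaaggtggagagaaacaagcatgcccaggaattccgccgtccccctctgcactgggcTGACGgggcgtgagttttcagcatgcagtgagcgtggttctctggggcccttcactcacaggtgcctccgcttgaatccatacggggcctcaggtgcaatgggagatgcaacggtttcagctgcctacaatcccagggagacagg
Itgav, chr2:83724147-83724396, plus strand: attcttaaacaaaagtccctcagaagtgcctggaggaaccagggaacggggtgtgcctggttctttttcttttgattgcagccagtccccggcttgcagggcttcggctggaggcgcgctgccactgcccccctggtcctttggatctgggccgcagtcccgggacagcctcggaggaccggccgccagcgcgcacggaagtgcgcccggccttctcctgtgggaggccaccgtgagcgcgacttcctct
Lama5, chr2:180225860-180226109, minus strand: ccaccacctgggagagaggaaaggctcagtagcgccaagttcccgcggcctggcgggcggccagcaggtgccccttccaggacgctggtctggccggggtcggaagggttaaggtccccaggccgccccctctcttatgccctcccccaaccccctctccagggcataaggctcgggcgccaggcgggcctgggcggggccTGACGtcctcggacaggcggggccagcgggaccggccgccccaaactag

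The short form was found once each in the Itga9 and Lama5 windows and not in the windows of Itga3, Itga4 and Itgav, and the AP-1 motif in none of the 5. The full element TGACGTCA was in none of the windows of the 23 members with an entry in the table, the short form in those of 4, the AP-1 motif in that of 1 and the GC box GGGCGG or CCGCCC in those of 8. Over all 32851 windows of the table these motifs were present in 1.55%, 17.8%, 6.75% and 32.7%. The Itga3 window holds 3 GC boxes, that of Lama5 holds 4 and that of Itga4 holds 1. These are matches of letters, with no measurement of binding in these cells.

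Several members stood at different levels with different hairpins. A fit with control and each hairpin as separate groups tested whether the hairpins had equal levels, with the spread taken from the 3 controls, on the assumption that each single hairpin library varies like a control. In this test 7 of 20 members passed (35%), Itga2b, Itga9, Itgav, Itgb1, Lama5, Lamb1 and Lamc1, against 14.0% of all tested genes. The SD of log2 CPM had a median of 0.46 over hairpins and 0.16 over controls for the members, and 0.19 and 0.10 for all tested genes. The SD over hairpins was larger than that over controls in 16 of the 20 members (80%) and in 78.8% of all tested genes. In 8 members the hairpins lay on both sides of the range of the controls, against 32.3% of all tested genes.

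**Figure D4:**
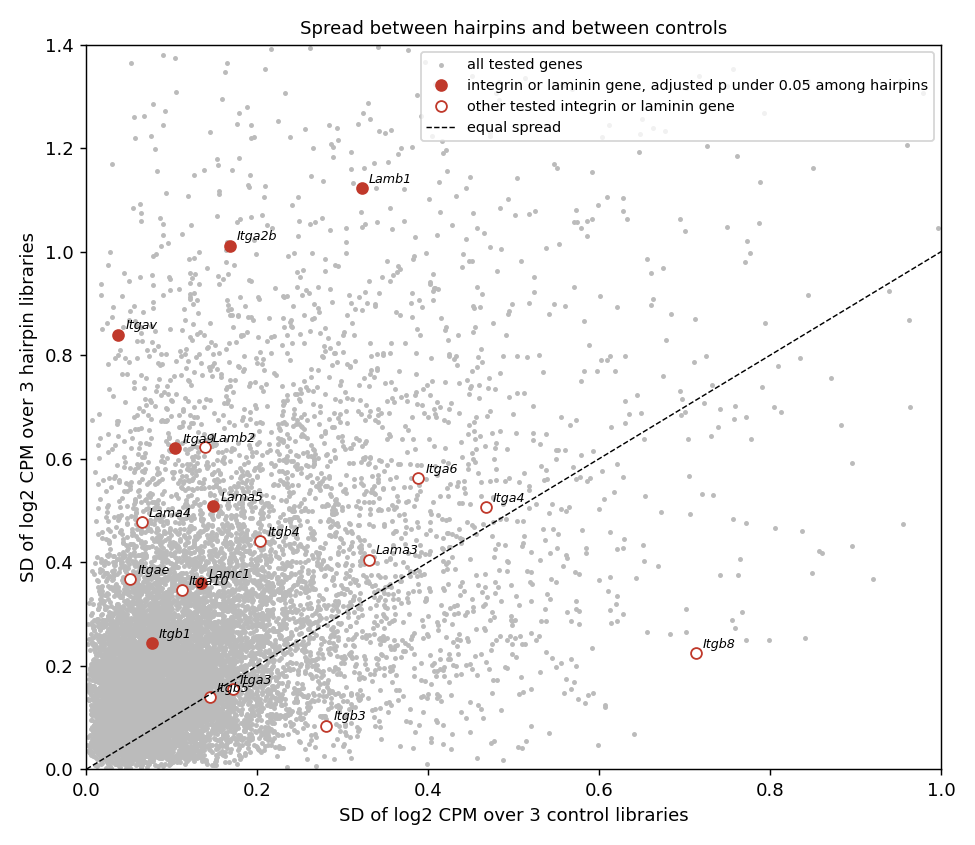
SD of log2 CPM over the 3 hairpin libraries (y axis) against the SD over the 3 control libraries (x axis) for all tested genes (grey, with 100 outside the axes) and 19 tested members (red, filled where the adjusted p among hairpins is under 0.05). Most members lie above the dashed line of equal spread, and Itga3, Itgb3, Itgb5 and Itgb8 lie below it.

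Itgav differed most clearly among the hairpins. It stood at 8.45, 27.4 and 15.5 CPM with hairpins 1, 2 and 5, against 14.0, 14.1 and 14.7 CPM in controls. Hairpin 1 was below, and hairpins 2 and 5 above, the narrow control range. The hairpins spread 3.24-fold and the controls 1.05-fold (edgeR adjusted p = 0.00397 among hairpins, DESeq2 0.000253). The pooled comparison with controls, with a mean of 17.1 ± 9.55 CPM with the hairpins and 14.3 ± 0.376 CPM in controls (SD, n = 3 each), gave a log2 fold change of 0.26 ± 0.35 that turned to -0.26 without hairpin 2.

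Itga9, the alpha chain of a receptor for tenascin and related ligands, ran the other way at 17.6, 7.62 and 9.39 CPM with hairpins 1, 2 and 5, against 14.5, 14.9 and 13.0 CPM in controls. Hairpin 1 exceeded the controls while hairpins 2 and 5 were below them (edgeR adjusted p = 0.0154 among hairpins). Lama5, given above, spread 2.01-fold over hairpins and 1.23-fold over controls (adjusted p = 0.0161 among hairpins), with log2 ratios to the control mean of -0.35 for hairpin 2 and -1.0 for hairpin 5. Lamc1 had log2 ratios of 0.52, 0.14 and -0.20 for hairpins 1, 2 and 5 (adjusted p = 0.0290). Itgb1 spread 1.4-fold over hairpins and 1.11-fold over controls (adjusted p = 0.0376). The low-level members Lamb1 and Itga2b, the alpha chain of the platelet fibrinogen receptor, spread 5.34-fold and 4.71-fold over hairpins (adjusted p = 0.0336 and 0.0422). Itga2b stood at 0.514, 2.42 and 0.885 CPM with hairpins 1, 2 and 5, against 1.63, 1.95 and 1.53 CPM in controls.

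Only Itga9, Itgav and Lama5 of these 7 passed under all 6 alternatives of the hairpin test. DESeq2 called 5 of the 20, without Itga2b and Lamb1, against 8.90% of all genes. Over the alternatives the adjusted p ranged from 2.26e-13 to 0.0111 for Itgav, from 4.13e-07 to 0.0487 for Itga9 and from 1.85e-09 to 0.0404 for Lama5, and from 0.000108 to 0.157 for Itgb1. For Lamc1 it ranged from 4.88e-07 to 0.0846, for Lamb1 from 0.000124 to 0.336 and for Itga2b from 0.00172 to 0.376. Without control replicate 2 (shEmpty) the calls of Itga2b, Itgb1, Lamb1 and Lamc1 were lost, leaving 3 members and 4.33% of all genes. Without control replicate 1 the count was 11 of 21 tested members and 38.1% of all genes, and without control replicate 3 it was 13 of 20 members and 38.9% of all genes. The number of calls among hairpins thus rests on single control libraries. The share of counts that HTSeq, the counting tool, assigned to no feature was 14.8%, 18.1% and 15.8% with hairpins 1, 2 and 5. In controls it was 16.8% to 17%. Whether these reads lay between genes or in introns was not examined. Of the 8 neuroendocrine markers 6 passed among the hairpins in edgeR, against 14.0% of all tested genes. The part of the no-feature share or of these markers in the differences among hairpins was not tested.

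**Figure D5:**
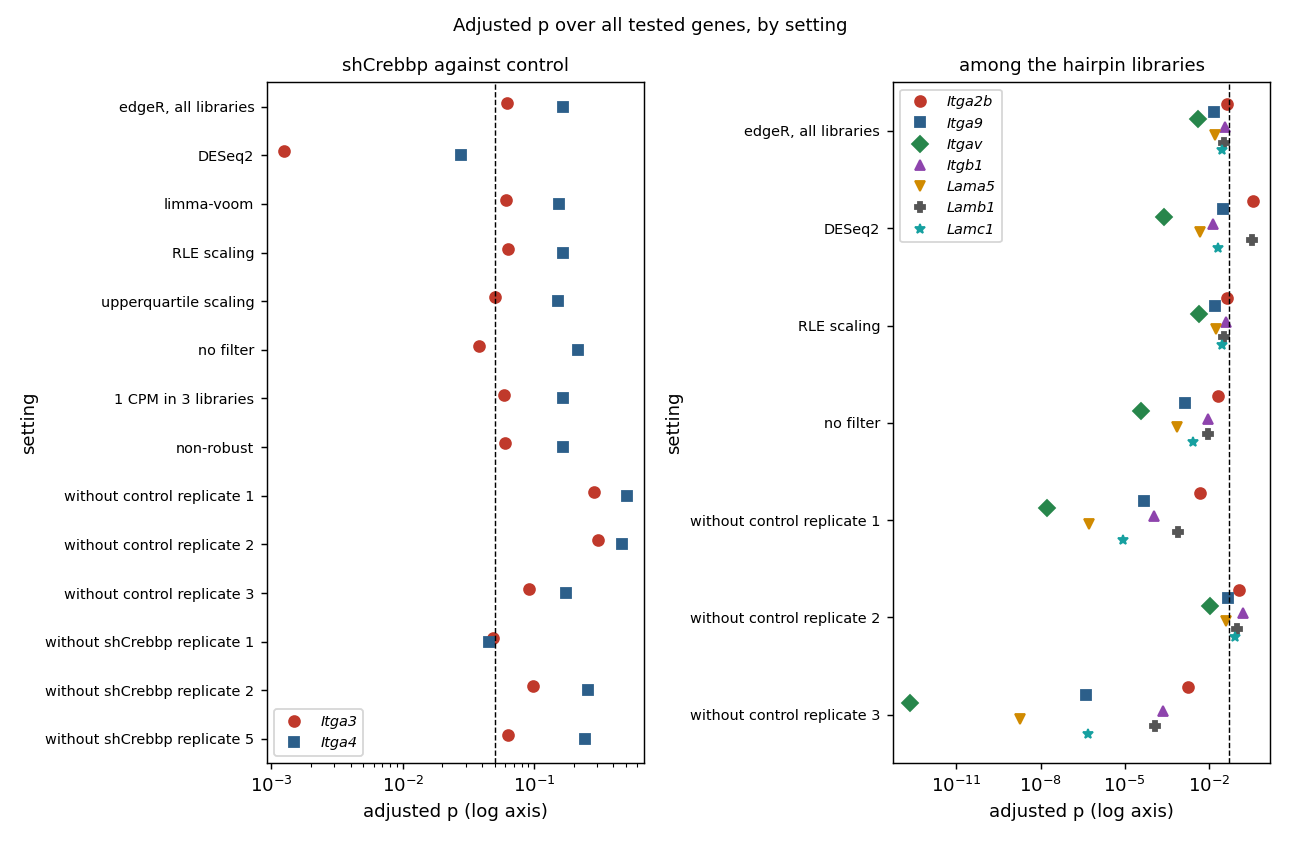
Adjusted p (log axis) of single members under each setting, for shCrebbp against control (left) and among the hairpin libraries (right), with the dashed line at 0.05. Itga3 lies close to the line with all libraries under edgeR, and Itgav stays left of it in each setting of the right panel.

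By hairpin, the members were shifted most with hairpin 5. Of the 20 members 18 lay below the control mean with hairpin 5, with a median log2 ratio of -0.41, and the 7 laminin genes all did. With hairpin 1 the median was 0.15 with 12 members above the control mean, 6 of the 7 laminin genes among them, and with hairpin 2 it was -0.01 with 10 above. Over all tested genes the median log2 ratio was 0.005 for each hairpin. Of these 13390 genes, 6782, 6788 and 6819 lay above the control mean with hairpins 1, 2 and 5. Hairpin 5 was the lowest of the hairpins in 12 members and in 6 of the 7 laminin genes, and it was lowest in 3930 of all 13390 tested genes. These are counts over genes of single libraries, and they carry no test.

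The single shNS library and the 2 shEmpty libraries were compared in a fit with 3 groups. Of its 3 residual degrees of freedom 2 came from the hairpin libraries, whose spread was wider than that of the controls (median SD of log2 CPM 0.19 over hairpins and 0.10 over controls for all tested genes), so the test had little power and says little about whether the control vectors differ. No member passed, nor did any of the 13390 genes (0.00%), and at an unadjusted p under 0.05 there were 1 member and 100 genes (0.747%). The member was Itgb8, at 1.17 CPM in shNS and 2.86 and 2.99 CPM in shEmpty, with a log2 difference of -1.32 ± 0.45 (edgeR unadjusted p = 0.0222). The log2 difference of Itga4 is given above, and that of Itgb1 was -0.09.

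Partners of integrins and laminins that are no members were given by lists. Of 18 other basement membrane genes 11 were tested, 1 was lower and 0 were higher in the edgeR test, against 1.25% of all tested genes in either direction, with a median log2 fold change of 0.02. DESeq2 gave an adjusted p for 14 of the 18 and called 2 lower, Col4a1 and Col4a2, and 1 higher, Sparc, against 5.30% of all its genes in either direction. Sparc, which was under the filter in edgeR, had 70, 7 and 2 reads with hairpins 1, 2 and 5 and 1, 0 and 3 reads in control replicates 1, 2 and 3, so the groups overlapped. The lower one in edgeR was Col4a1, a chain of the collagen IV network to which laminin is linked, at 41.2, 42.2 and 41.0 CPM with the hairpins and 67.3, 68.2 and 57.7 CPM in controls (log2 fold change -0.64 ± 0.09, adjusted p = 0.0272). The hairpins lay within 1.03-fold of each other for this gene, below the control range. Nid1, which encodes the laminin linker nidogen, did not pass but stood at 2.13, 19.9 and 12.4 CPM with hairpins 1, 2 and 5 and 9.09, 10.2 and 7.81 CPM in controls (adjusted p = 0.00228 among hairpins). In this list 3 of 11 tested genes passed among the hairpins, the others being Agrn and Frem2, against 14.0% of all tested genes.

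Of 11 other laminin receptors and hemidesmosome genes 10 were tested, and 1 was lower and 0 higher in edgeR (1.25% of all tested genes in either direction). DESeq2 called 1 lower and 1 higher (5.30% of all its genes), the higher one being the tetraspanin gene Cd81, at 156, 187 and 166 CPM with the hairpins and 129, 127 and 138 CPM in controls (DESeq2 adjusted p = 0.0129, edgeR 0.0974). The lower one in both tools was Sdc4, a heparan sulfate proteoglycan that acts with integrins in adhesion, at 34.0, 39.4 and 27.6 CPM with the hairpins and 69.1, 66.8 and 53.1 CPM in controls (log2 fold change -0.90 ± 0.15, edgeR adjusted p = 0.0350). Of 14 integrin ligands other than laminin 3 were tested, and the E-cadherin gene Cdh1, a ligand of the Itgae chain, was lower at 282, 285 and 411 CPM with the hairpins and 753, 657 and 548 CPM in controls (log2 fold change -1.0 ± 0.17, adjusted p = 0.0361). Fn1, the fibronectin gene, stood at 52.4, 38.8 and 20.5 CPM with the hairpins and 13.0, 16 and 14.6 CPM in controls (edgeR adjusted p = 0.0784, DESeq2 0.000288, and 0.00725 among hairpins in edgeR). Each hairpin library lay above the control range for Fn1. Among 28 adaptor genes of integrin adhesions 25 were tested, with 1 lower and 0 higher in edgeR and a median log2 fold change of 0.01. DESeq2 called 3 of them lower, Ptk2b, Actn1 (adjusted p = 0.00733) and Tns3 (0.0269), and 2 higher, Lims1 (0.00837) and Tln2 (0.0153), and for these 5 genes the groups did not overlap. Ptk2b, which encodes a kinase related to focal adhesion kinase, had 5.29, 5.63 and 4.76 CPM with the hairpins and 10.2, 9.69 and 10.7 CPM in controls (log2 fold change -0.96 ± 0.16, adjusted p = 0.0340). For Sdc4, Ptk2b, Cdh1 and Col4a1, called by edgeR, the hairpin and control ranges did not overlap. Of all tested genes, 11.0% had all hairpin libraries below all controls and 11.4% had all above. Genes called from these libraries tend to be ones without overlap, so this adds no support to these calls or to the 5 of DESeq2. Without control replicate 1, or without control replicate 2, 0 genes of the whole table passed in edgeR, with 1332 and 1238 genes at an unadjusted p under 0.05. The calls of Sdc4, Ptk2b, Cdh1 and Col4a1 were thus lost as well. A fit with fewer libraries has less power, so this loss does not show that a call rests on a single control.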

How the data were processed

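Gene expression was measured in 3 shCrebbp and 3 control libraries of preSC cells. Each library has a deposited table of unnormalized counts from the authors, in HTSeq's format and keyed by symbol. Per the submitters' processing notes, the tools were TopHat2 (2.0.12), HTSeq (0.6.1) and bcl2fastq (1.8.2), on build mm9. Neither annotation nor strand setting is given in the sources. HTSeq's 5 summary rows, 24.8% to 28.9% of the counts in a table, entered neither totals nor tests. No pair of libraries within a group was a duplicate: their chi-square, divided by its degrees of freedom, was 4.08 to 28.4.

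The tests used edgeR 4.0.16 under R 4.3.3 (TMM, filterByExpr, robust quasi-likelihood, Benjamini-Hochberg over all tested genes, threshold 0.05). The SE of a log2 fold change comes from its F statistic, and log2 CPM uses a prior count of 2. DESeq2 1.42.0, limma-voom 3.58.1, other scalings and filters, and leaving out each library were the alternatives. Functions were tested on simulated data. All 37 members matched GENCODE M21 and RefSeq tables (GRCm38), used for lengths, names and upstream sequence, since no mm9 annotation was used here; 23 members had an upstream entry. Members, gene lists and tests were chosen with earlier results of these data known. The rule for members given with values chose 18: those called by edgeR or DESeq2 in the group or hairpin test, the 3 most abundant per chain class, and the 6 with the largest fold change at a mean of at least 1 CPM in a group. Values of 1 member are not reported here, and counts over the members include it. Other members with values were chosen after these were seen. A plan to show protein stretches was dropped, and no protein table was used here. Counting limits assume independent reads.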

Additional observations from a re-analysis of the deposited data

Results flagged for a closer look

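Levels differed between hairpins, by a test of the difference itself, for 7 members. The edgeR adjusted p among hairpins was 0.0422 for Itga2b, 0.0154 for Itga9, 0.00397 for Itgav, 0.0376 for Itgb1, 0.0161 for Lama5, 0.0336 for Lamb1 and 0.0290 for Lamc1. The spread in this test comes from the 3 controls, and each hairpin has a single library.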

How the results depend on the processing

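The count of genes changed between shCrebbp and control was 168 in edgeR with all libraries and 736 by DESeq2, and ranged from 0 (without control replicate 1 or 2, with 1332 and 1238 at an unadjusted p under 0.05) to 389 (without hairpin 5) when a library was left out, with 48 without control replicate 3, 368 without hairpin 1 and 101 without hairpin 2. The members called were 0 with all libraries, 3 by DESeq2, 1 with upper quartile scaling, 1 without a filter, and 0 to 2 when a library was left out. Among hairpins 1876 genes passed, against 1174 by DESeq2, 2966 without a filter and 586 to 5264 when a control was left out; for members the range was 3 to 13 around 7. Without the filter 8 members passed and with DESeq2 5.

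Signs turned for 5 of the 16 tested members chosen by the naming rule, none of them called between the groups in any setting. Lama4 had a log2 fold change of 0.02 with all libraries and -0.035 by limma-voom. When a library was left out, values ranged from -0.26 to 0.58 for Itgav, -0.16 to 0.077 for Itgb1, -0.075 to 0.068 for Itgb5, -0.27 to 0.22 for Lama4 and -0.024 to 0.33 for Lamc1. The cause was not tested. The median log2 ratio over tested members was -0.03 with TMM, -0.04 with RLE and -0.03 with upper quartile scaling. With the longest transcript 14 of the 15 most abundant chains per class were shared. The laminin beta and gamma classes hold no more genes than were taken per class, so their part in this count was fixed in advance. Lamc3, which had no read in any library, is among them. No paired analysis was possible because the shCrebbp numbers name hairpins, and among control libraries the labels number a single one (2), the other numbers being given in accession order. Depth limits members under 3 reads per library (0.151 to 0.220 CPM).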

Other observations

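Itga5, the alpha chain of the fibronectin receptor, was under the filter on low counts. It had 8, 22 and 2 reads with hairpins 1, 2 and 5, against 8, 4 and 1 reads in control replicates 1, 2 and 3. Itgb7, a leukocyte beta chain, had 1, 9 and 5 reads with the hairpins, against 3, 5 and 2 reads in controls. Hairpin 2 was highest for both genes.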
